A study of Mus musculus with 10 samples.

Results

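Middle cerebral artery occlusion (MCAO) was compared with sham surgery in wild-type (WT) male mice, 24 h after surgery, in total RNA from 1 brain hemisphere. This is a model of ischaemic stroke. The comparison rests on 5 of the 10 arrays of the series, 3 WT MCAO and 2 WT sham. The arrays were chosen by their titles and every measured gene was kept, which gave 18193 genes. The ischaemic hemisphere was taken after MCAO and the hemisphere on the operated side after sham surgery, so cortex, striatum and deeper regions were measured together. The other 5 arrays came from Hsp72Tg male mice, which overexpress Hsp72, after the same surgery (3 MCAO and 2 sham) and at the same time, and served here as separate samples of the same injury. The labels give no strain, age or occlusion time and do not say what drives the transgene.

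The middle cerebral artery feeds the striatum and the lateral cortex, and its occlusion starves that territory of oxygen and glucose. Neurons in the core die within hours, while microglia and astrocytes become reactive, the endothelium turns adhesive and leukocytes enter over the following day. Heat shock factors, the unfolded protein response, AP-1, NF-kappaB, STAT3 and interferon signalling are known to drive much of the transcription in injured brain. Levels are log2 expression values, and a change is the mean of the MCAO arrays minus that of the sham arrays on the same scale. A gene is said to rise or fall where it passed the test given with the first counts. In RNA from a whole hemisphere, fewer cells of a type and less RNA per cell cannot be told apart.

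All 5 arrays carried the markers of brain tissue. The mean of 10 neuronal markers lay between 12.20 and 12.46 (log2 expression) and that of 17 astrocyte markers between 11.01 and 11.16. The first principal component of the 5 arrays held 62.8% of the variance and put the sham arrays at -24.98 and -24.08, and the MCAO arrays at 16.78, 14.43 and 17.85. The second held 17.5%.

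WT sham 1 stood apart from the other 4 arrays in its cerebellar genes. Gabra6, a GABA receptor subunit of cerebellar granule cells, read 9.46 and 4.15 in WT sham 1 and WT sham 2 and 4.23, 4.34 and 4.47 after MCAO. Pcp2, a Purkinje cell gene, read 9.87 and 5.63 (sham) and 5.92, 5.86 and 5.6 (MCAO). High values in WT sham 1 alone were also seen for Car8, Cbln3, Ppp1r17 and Crtam. The mean level of 24 cerebellar markers was 8.21 in WT sham 1, 7.12 in WT sham 2 and 7.01 to 7.14 in the MCAO arrays. Their median MCAO change was -0.46 on the log2 scale and 0.03 without WT sham 1. Of the 24, Kit and Calb1 were called lower, by limma, at -0.61 and -0.49. Without WT sham 1 their changes were -0.55 and -0.35, with an adjusted p of 0.131 and 0.248.

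WT sham 1 was also high in Gh, growth hormone of the pituitary, at 9.31 against 5.99 in WT sham 2 and 6.83, 6.01 and 6.22 after MCAO. It read higher than WT sham 2 in the neutrophil alarmins S100a8 (7.67 against 5.53) and S100a9 (7.38 against 5.31). In all, 54 genes differed by at least 2-fold between the sham arrays, 30 of them higher in WT sham 1, and 3 of the 54 were called changed by MCAO. Genes of the olfactory bulb formed a second regional pattern that crossed the surgery groups. S100a5 read 4.88 and 7.20 in the sham arrays and 4.32, 7.62 and 4.76 in the MCAO arrays, and the mitral cell gene Cdhr1 read 7.83 and 9.44 (sham) and 6.99, 10.09 and 6.98 (MCAO). WT sham 2 and WT MCAO 2 were the high WT arrays for 8 such genes, with means of 7.37 and 7.82 against 6.0 to 6.10 in the other WT arrays. Hsp72Tg sham 1 was high as well, at 7.72 against 6.02 to 6.23 in the other Hsp72Tg arrays. These 8 genes were picked after their values were seen, and none was called changed by MCAO in limma's test, at an adjusted or an unadjusted p under 0.05. Of the Hsp72Tg arrays, Hsp72Tg MCAO 1 stood nearer to sham surgery than Hsp72Tg MCAO 2 and 3 in striatal and activated microglial markers. The mean level of 8 striatal markers was 10.26 in it, 10.15 and 10.19 in the Hsp72Tg sham arrays, and 9.23 and 8.80 in the other Hsp72Tg MCAO arrays. The mean of 15 markers of activated microglia and macrophages was 7.89 in it, 7.60 and 7.45 after sham surgery, and 8.41 and 8.98 in the others.

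**Figure D1:**
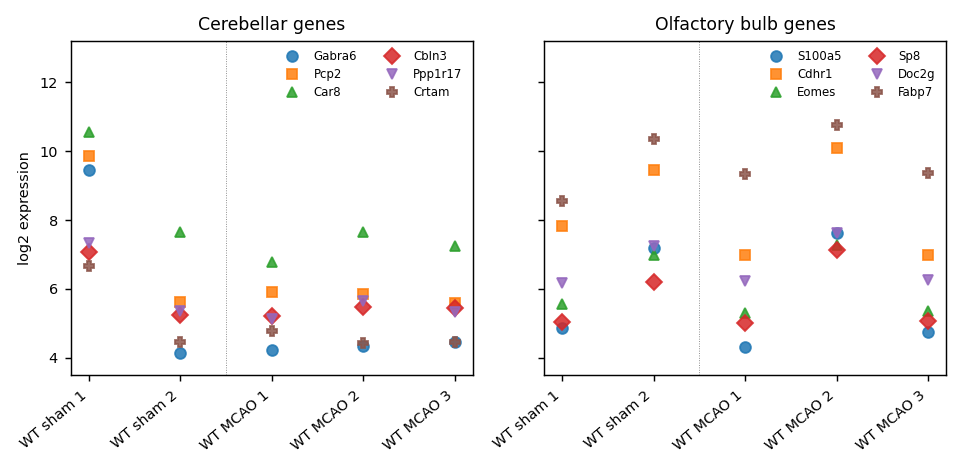
Log2 expression of 6 cerebellar genes and 6 olfactory bulb genes in each of the 5 WT arrays, with the sham arrays left of the dotted line. The cerebellar genes are high in WT sham 1 alone (Gabra6 at 9.46 against 4.15 to 4.47), and the olfactory bulb genes are high in WT sham 2 and WT MCAO 2 (S100a5 at 7.20 and 7.62).

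Of 18193 genes, 955 (5.25%) passed limma's test at a Benjamini-Hochberg adjusted p under 0.05, 675 of them higher after MCAO (3.71%) and 280 lower (1.54%). At an unadjusted p under 0.05 there were 3670 genes, where 910 would be expected by chance. The arrays of the 2 groups did not overlap for 7089 genes (39%), so a gap between the groups alone marks nothing out at this number of arrays. The rises were larger than the falls. The median called change was 0.75 for rises and -0.56 for falls, and among called genes 212 rose and 17 fell by at least 2-fold. At 4-fold there were 53 genes that rose and 1 that fell, the orphan receptor gene Gpr6. The median change over all genes was -0.02.

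The number of calls depended on single arrays. Leaving out WT sham 1 gave 336 calls (1.85%), WT sham 2 gave 411 (2.26%), WT MCAO 1 gave 1100 (6.05%), WT MCAO 2 gave 628 (3.45%) and WT MCAO 3 gave 443 (2.44%). All 955 called genes kept their sign in each of these 5 fits. The fits reuse all but 1 of the arrays that gave the calls, so this is largely built in. 245 genes kept their call in all 5 (218 higher and 27 lower), 311 kept it without WT sham 1, and 82 kept it in none. Fitted over all 10 arrays with 1 shared spread, the same comparison called 10 genes, with 1861 at an unadjusted p under 0.05 in limma, so the counts hold for the spread among the WT arrays alone. Of the 541 called genes with several probe sets, 133 had probe sets that pointed in opposite directions. Among the genes named in the text these were Anxa2, Birc3, Cd44, Cplx2, Filip1, Gabra2, Gabrd, Osmr, Psmb8, Ptprc, Pycard, Sdc4, Slc16a1, Tgfbr2, Tubb6 and Wnt9a, whose opposite probe sets lay between -0.14 (Pycard) and 0.13 (Gabrd).

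**Figure D2:**
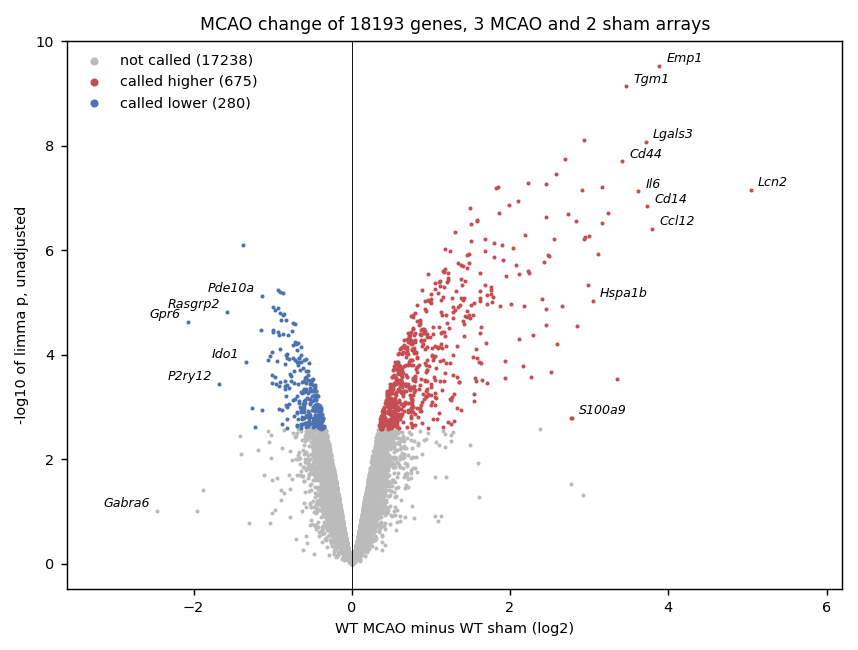
Change after MCAO (WT MCAO minus WT sham, log2) against the unadjusted p of limma's test for 18193 genes, with genes called at an adjusted p under 0.05 in colour. Rises reach further than falls, and Gabra6, whose change rests on WT sham 1, is not called.

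The genes with the widest gap between the groups included secreted defence proteins, chemokines, matrix genes and markers of reactive glia. Lcn2, the iron-siderophore-binding protein lipocalin 2, read 5.30 and 5.27 (sham) and 10.48, 9.84 and 10.67 (MCAO). It rose 32.9-fold (log2 change 5.04 ± 0.22 SE, limma adjusted p = 9.01e-05), the largest change among called genes. Emp1, an epithelial membrane protein induced in reactive astrocytes, read 5.27 and 5.24 (sham) and 9.07, 9.13 and 9.20 (MCAO) (3.88 ± 0.079, adjusted p = 5.32e-06). The galectin Lgals3, a mark of phagocytic microglia and macrophages, read 5.85 and 5.85 (sham) and 9.62, 9.74 and 9.35 (MCAO). The monocyte chemokine Ccl12 read 5.29 and 5.29 (sham) and 8.72, 9.54 and 9.0 (MCAO). In both cases the lowest MCAO array stood over 3 log2 units above the highest sham array.

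Tgm1, a transglutaminase, read 4.93 and 5.04 in the sham arrays, below the lower quartile of all probe sets, and 8.41, 8.45 and 8.50 after MCAO. Cd14, the co-receptor for bacterial lipopolysaccharide, read 6.67 and 7.04 (sham) and 10.49, 10.35 and 10.92 (MCAO). The cytokine Il6 read 4.52 and 4.77 (sham) and 8.15, 8.06 and 8.57 (MCAO), a rise of 3.62 ± 0.16 (adjusted p = 9.01e-05). The hyaluronan receptor Cd44 read 6.43 and 6.12 (sham) and 9.60, 9.62 and 9.87 (MCAO). The aggrecanase Adamts1, the oncostatin M receptor Osmr, the chemokine Ccl9, the myeloid membrane gene Ms4a6d and the tubulin Tubb6 rose by 3.16, 3.23, 3.16, 2.94 and 2.91 on the log2 scale. Timp1, Cebpd, Ctla2a, Serpina3n, Hspb1, Lrg1 and Mmp3 completed the 20 and rose by 2.70 to 3.12. Choosing genes by their gap in these same arrays favours calls that last with an array left out. All 20 kept their call whichever WT array was left out.

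The widest gaps downward included genes of striatal neurons and of microglia. Gpr6, a receptor of striatopallidal neurons, read 8.37 and 8.28 (sham) and 5.95, 6.72 and 6.09 (MCAO), a fall of 2.07 ± 0.21 SE (adjusted p = 0.00271). Rasgrp2, a Rap1 exchange factor of striatal neurons, read 8.75 and 9.01 (sham) and 7.22, 7.57 and 7.11 (MCAO). P2ry12, the ADP receptor that marks resting microglia, read 8.17 and 8.92 (sham) and 6.47, 7.21 and 6.90 (MCAO). Gpr34, another microglial receptor, read 6.59 and 7.50 (sham) and 5.69, 5.84 and 5.83 (MCAO), and its sham arrays differed by nearly 1 log2 unit. Ido1, which degrades tryptophan, fell by 1.34.

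Pde10a, Rasd2, Rgs9, Drd2, Gng7, Scn4b and Sh3rf2 are striatal signalling genes and fell by 0.90 to 1.14. Gabrd, the subunit of extrasynaptic GABA receptors, read 9.34 and 9.30 (sham) and 8.32, 8.42 and 8.41 (MCAO). Mme, the peptidase neprilysin, fell by 1.0 and Rxrg, a retinoid receptor, by 1.06. The acetyltransferase-like Nat8f4, the sodium pump modulator Fxyd7, the exchange factor Rasgef1b, the kinase Stk26 and Filip1 made up the rest and fell by 0.87 to 1.0. The choice by gap puts the sham arrays above the MCAO arrays in the 20 and favours calls that last with an array left out. All but Ido1, P2ry12, Scn4b, Gpr34, Stk26 and Rxrg kept their call in all 5 fits with an array left out. Scn4b, Stk26 and Ido1 lost their calls without WT sham 1, Scn4b, Rxrg and P2ry12 without WT sham 2, Gpr34 without WT MCAO 1, Gpr34 without WT MCAO 2, and P2ry12 and Gpr34 without WT MCAO 3.

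**Figure D3:**
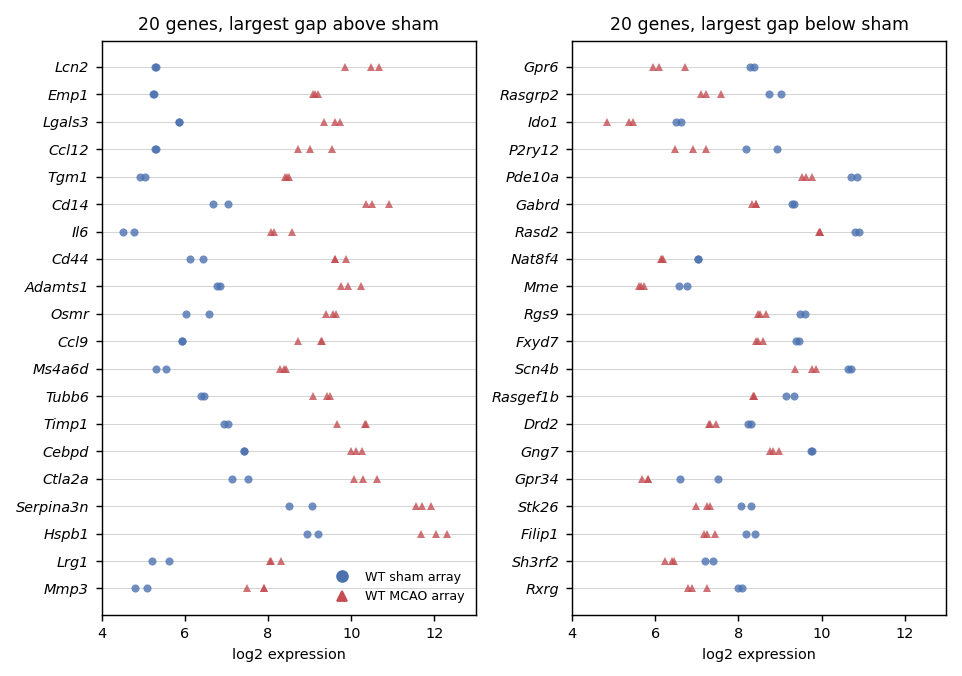
Log2 expression in each WT array for the 20 called genes with the widest gap above sham and the 20 with the widest gap below. Circles are the 2 sham arrays and triangles the 3 MCAO arrays. The gaps are wider on the left (Lcn2 from 5.30 to at least 9.84) than on the right (Gpr6 from 8.28 to at most 6.72).

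Over 11 lists of heat shock, unfolded protein, oxidative, hypoxic, immediate early, growth arrest, cell death and glucocorticoid genes, 77 of 283 measured genes rose (27.2%, against 3.71% of all genes) and 1 fell. The number that rose was 36, 44, 72, 51 and 44 when WT sham 1, WT sham 2 and WT MCAO 1, 2 and 3 were left out in turn. A range in brackets after a count gives the lowest and highest count over the 5 fits with 1 array left out. Of 51 heat shock proteins and co-chaperones, 11 rose (5 to 11), led by the inducible chaperones Hspa1b and Hspa1a, which encode Hsp72, and the small heat shock proteins Hspb1 and Hspb6. Hspa1a read 8.54 and 8.45 (sham) and 10.62, 11.56 and 11.27 (MCAO) (2.66 ± 0.25, adjusted p = 0.00177). Hspa1b read 9.38 and 9.48 (sham) and 11.85, 12.84 and 12.73 (MCAO). WT MCAO 1 was the lowest MCAO array for both, and the 2 genes are near-identical in sequence, so their probe sets may share signal.

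The unfolded protein and integrated stress response gave 10 rises of 39 (2 to 9), most of them small. Atf3, a stress-induced repressor, read 6.40 and 6.11 (sham) and 8.56, 8.11 and 8.32 (MCAO) and was the single member past 2-fold. The stress regulator Nupr1 rose by 1.0, the phosphatase subunit Ppp1r15a by 0.68 and the cystine transporter Slc7a11 by 0.76. Among metallothioneins and Nrf2 targets 11 of 31 rose (5 to 9) and 1 fell. Haem oxygenase Hmox1 read 6.12 and 6.15 (sham) and 8.76, 8.54 and 8.83 (MCAO), the metallothionein Mt2 11.98 and 11.39 (sham) and 13.03, 12.88 and 12.98 (MCAO), and the sulfiredoxin Srxn1 9.46 and 9.51 (sham) and 10.54, 10.25 and 10.40 (MCAO). The small Maf protein Maff rose by 1.53. Ppp1r15a lost its call on leaving out WT sham 2, and Slc7a11 on leaving out WT sham 1, WT sham 2, WT MCAO 2 or WT MCAO 3.

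Of 22 hypoxia-induced genes hexokinase 2 (Hk2, 1.31) and adrenomedullin (Adm, 1.0) rose (9.09%, against 3.71% of all genes). In limma 11 of the 22 had an unadjusted p under 0.05, against 3670 of all 18193 genes. Of 15 AP-1 genes 8 rose (4 to 8). Fos read 8.37 and 9.54 (sham) and 11.03, 11.07 and 11.26 (MCAO), and WT sham 2 was the higher of the sham arrays by over 1 log2 unit. Fosl1 rose by 1.54. The growth arrest genes Gadd45b and Gadd45g and the early response gene Ier3 rose by 1.80, 1.41 and 1.48, in a list of 30 activity-induced genes with 9 rises (4 to 10). Adm lost its call on leaving out WT sham 1, WT sham 2 or WT MCAO 3, and Fosl1 on leaving out WT sham 1, WT sham 2 or WT MCAO 2.

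Transcription factors of growth and injury gave 15 rises of 37 (8 to 15) and a list median of 0.39. Cebpd, which drives acute-phase genes, rose by 2.70, its relative Cebpb by 1.41, the NF-kappaB cofactor Bcl3 by 1.53 and Klf4 by 1.35. Of 22 p53 targets 8 rose (3 to 5), among them the cell cycle inhibitor Cdkn1a at 9.49 and 8.54 (sham) and 10.96, 10.49 and 10.73 (MCAO). Fewer genes of cell death passed the test. Mcl1 and Pmaip1 rose among 16 BCL2 family genes, by 0.71 and 0.38, and 4 of 19 caspases and death adaptors rose (0 to 5), the inhibitor of apoptosis Birc3 (0.78), Cflar (0.78), Casp8 (0.77) and the necroptosis kinase Ripk3 (0.63). Ripk3 read below the lower quartile of all probe sets in both sham arrays. Of 21 glucocorticoid-induced genes 7 rose (3 to 8). The rises were led by Lcn2, Cdkn1a and Mt2, which also stand in other lists here. This list had a median of 0.60, which was 0.94 without WT sham 1 and 0.14 without WT sham 2. Plin4, a lipid droplet gene of the list that was not called, read 9.32 in WT sham 1 and 7.05 in WT sham 2. Bcl3, Birc3, Cflar, Casp8 and Ripk3 lost their calls without WT sham 1, Klf4, Casp8 and Ripk3 without WT sham 2, Ripk3 without WT MCAO 2, and Klf4 and Cdkn1a without WT MCAO 3. Pmaip1 lost its call in each of the 5 fits.

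Over 13 lists of inflammatory genes, 97 of 361 genes rose (26.9%) and 2 fell, and the number that rose was 51, 66, 107, 77 and 64 with the arrays left out in the same order. The interleukin 6 family held some of the largest changes, although 7 of its 33 genes passed (5 to 9). For comparison, 3.71% of all genes rose and 1.54% fell. Il11 read 6.18 and 6.61 (sham) and 8.57, 10.35 and 10.32 (MCAO), with WT MCAO 1 well below the other MCAO arrays. Leukaemia inhibitory factor Lif read 5.34 and 5.42 (sham) and 7.59, 7.92 and 8.0 (MCAO), and Osmr, the receptor subunit for oncostatin M, 6.01 and 6.57 (sham) and 9.64, 9.38 and 9.56 (MCAO). Socs3, the feedback inhibitor of this pathway, read 7.13 and 7.15 (sham) and 9.63, 9.42 and 9.73 (MCAO), a rise of 2.46 ± 0.10 (adjusted p = 9.01e-05). The list median was 0.06. Il11 lost its call on leaving out WT sham 1, WT sham 2 or WT MCAO 3.

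Of 20 interleukin 1 and inflammasome genes 7 rose (3 to 7). The alarmin Il33 read 9.59 and 10.36 (sham) and 11.45, 11.56 and 11.84 (MCAO), the adaptor Myd88 rose by 1.34 and the inflammasome adaptor Pycard by 1.33. Il1b, the best known cytokine of the list, rose by 0.88 ± 0.10 (adjusted p = 0.0046). In the TNF list of 30, 4 receptors rose (2 to 4): Tnfrsf12a, the receptor for TWEAK, by 1.68, Tnfrsf1a by 1.51, Ltbr by 0.78 and Fas by 0.51. Of 16 NF-kappaB genes 5 rose (2 to 5). They were led by Bcl3 (1.53) and Nfkbiz (1.41), followed by the inhibitor Nfkbia (0.78) and the kinase Map3k8 (0.60). Pycard, Ltbr, Bcl3 and Map3k8 lost their calls without WT sham 1, Ltbr, Nfkbia and Map3k8 without WT sham 2, Map3k8 without WT MCAO 2, and Pycard, Ltbr, Nfkbia and Map3k8 without WT MCAO 3. Fas lost its call in each of the 5 fits.

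Of 55 chemokine and chemokine receptor genes 12 rose (6 to 13), with the ligands Ccl12, Ccl9, Cxcl2 and Ccl2 in front and Ccr1 as the single receptor. Ccl2, which draws monocytes, read 6.58 and 6.23 (sham) and 8.74, 8.74 and 9.18 (MCAO). Cxcl2, which draws neutrophils, read 4.88 and 4.58 (sham) and 6.79, 6.87 and 8.08 (MCAO), with WT MCAO 3 far above the other MCAO arrays. Of 24 toll-like receptor genes 10 rose (5 to 11), among them Tlr2 at 5.98 and 5.69 (sham) and 6.94, 7.15 and 7.23 (MCAO) and Tlr13 (1.16). In the complement list 5 of 27 rose (3 to 5), the receptor C3ar1 by 1.34, the integrin Itgb2 by 1.17 and the C1q chains C1qb and C1qa by 0.79 and 0.76. Cxcl2, Tlr13, C1qb and C1qa lost their calls without WT sham 1, Cxcl2, Tlr13 and C1qa without WT sham 2, C1qb and C1qa without WT MCAO 2, and C1qb and C1qa without WT MCAO 3.

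Of 54 interferon-stimulated genes 22 rose (10 to 26), 48 had values above 0 and the median was 0.54. Ifitm3, a membrane protein that restricts virus entry, read 8.65 and 9.32 (sham) and 10.93, 11.25 and 11.28 (MCAO), and Ifitm1 rose by 1.41. The chemokine Cxcl10 read 5.79 and 5.79 (sham) and 7.44, 7.86 and 7.81 (MCAO), and the GTPase Gbp2 5.5 and 6.16 (sham) and 7.68, 7.32 and 7.24 (MCAO). Of 21 MHC and antigen processing genes 1 rose (0 to 4), the immunoproteasome subunit Psmb8 by 0.74, and 19 of the 21 values lay above 0. Psmb8 lost its call on leaving out WT sham 1, WT sham 2, WT MCAO 2 or WT MCAO 3.

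Among Fc receptors and leukocyte integrins 6 of 17 rose (4 to 7) and 2 fell. Fcgr1, the high-affinity IgG receptor, rose by 1.22, and the leukocyte gene Ptprc by 1.17. In the prostaglandin pathway 4 of 28 rose (2 to 4): the inducible cyclooxygenase Ptgs2 at 7.17 and 7.34 (sham) and 9.10, 8.66 and 9.15 (MCAO), the prostaglandin E synthase Ptges (1.12), the phospholipase Pla2g4a (0.97) and Alox5ap (0.92). Annexins and S100 proteins gave 10 rises of 23 (6 to 10). Anxa2 read 8.90 and 8.89 (sham) and 10.78, 11.27 and 11.33 (MCAO), and S100a4 rose by 1.45. S100a8 read 7.67 and 5.53 (sham) and 8.89, 9.51 and 9.72 (MCAO) and S100a9 7.38 and 5.31 (sham) and 8.61, 9.12 and 9.64 (MCAO). The sham arrays differed from each other by over 2 log2 units for both, and the rise of S100a9 was 2.78, 3.81 without WT sham 1 and 1.75 without WT sham 2. Ptprc, Ptges and Pla2g4a lost their calls without WT sham 1, Ptges and S100a9 without WT sham 2, S100a8 without WT MCAO 1, Pla2g4a, S100a8 and S100a9 without WT MCAO 2, and Ptprc, Ptges, Pla2g4a, S100a8 and S100a9 without WT MCAO 3.

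Cell type markers were set beside these lists. Of 15 markers of activated microglia and macrophages 10 rose (7 to 10), with mean levels of 7.44 and 7.48 in the sham arrays and 8.59 to 8.70 in the MCAO arrays. Cd14, Lgals3 and Ms4a6d led them. Of 12 markers of resting microglia none rose, and P2ry12 and Gpr34 fell. Their mean level was 7.64 in WT sham 1 and 8.32 in WT sham 2, with 7.63 to 7.95 after MCAO, so the sham arrays spread wider than the groups. Of 13 neutrophil markers S100a8, S100a9 and Il1r2 rose, and the mean level was 6.36 and 5.78 in the sham arrays and 6.41 to 6.70 after MCAO. Of 12 T, B and NK cell markers none rose and Cd4 fell by 0.51, at mean levels of 5.57 to 5.74 in all 5 arrays. Of 11 oligodendrocyte markers Aspa fell by 0.81, of 8 precursor markers none was called in limma and 4 had an unadjusted p under 0.05, and of 12 markers of meningeal and perivascular fibroblasts 3 rose and 1 fell. The part of entering cells in the rises above was not tested. Il1r2 and Cd4 lost their calls without WT sham 1, P2ry12, S100a9, Il1r2, Cd4 and Aspa without WT sham 2, Gpr34 and S100a8 without WT MCAO 1, Gpr34, S100a8, S100a9, Il1r2 and Cd4 without WT MCAO 2, and P2ry12, Gpr34, S100a8, S100a9 and Il1r2 without WT MCAO 3.

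Promoters were read for motifs of some of the factors named above and of others. The share of a list covers the promoters of its measured members, called or not. RefSeq start sites of the assembly GRCm38.p6 gave 32851 promoters of 300 bases, 250 before to 50 after the start, and both strands were searched for 8 motifs. The heat shock element TTCNNGAANNTTC, 3 units spaced by 2 bases, was in 12.1% of 58 promoters of the heat shock list and in 0.603% of all promoters. The interferon element GAAANNGAAA was in 42.6% of 47 promoters of the interferon list and in 3.44% of all. The STAT motif TTCNNNGAA was in 5.56% of 36 promoters of the interleukin 6 list and in 8.3% of all. Over all genes that rose these 3 shares were 0.438%, 4.67% and 9.05%. The AP-1 motif TGANTCA was in 0 of 14 promoters of the AP-1 list, which holds the factors themselves, and in 7.81% of all. It was in 9.2% of promoters of genes that rose, 4.03% for genes that fell and 6.38% for measured genes. The CRE motif TGACGTCA was in 8.82% of 34 promoters of the activity-induced list and in 1.79% of all. In 35 promoters of the metallothionein and Nrf2 list, the metal response motif TGCGCNC was in 20% (15.4% of all). The antioxidant response motif TGACNNNGC was in 31.4% (12.4% of all). Over the promoters of measured genes the shares were 22.4% for the metal motif, above that of the list, and 13.9% for the antioxidant motif. The sterol motif TCACNCCAC was in 3.7% of 27 promoters of the cholesterol synthesis list and in 1.24% of all. These are matches of letters and not binding sites, and a base may belong to more than 1 motif.

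Of the heat shock, interferon and interleukin 6 lists, the promoter of the gene with the largest called change among those that hold the motif is shown, 5′ to 3′ on the gene's strand with the motif in capitals. Hsph1, a large co-chaperone of Hsp70, lies on chromosome 5 (chr5:149636266-149636565, minus strand). It rose by 0.76. Hsph1 lost its call on leaving out WT sham 1, WT MCAO 2 or WT MCAO 3.

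Hsph1: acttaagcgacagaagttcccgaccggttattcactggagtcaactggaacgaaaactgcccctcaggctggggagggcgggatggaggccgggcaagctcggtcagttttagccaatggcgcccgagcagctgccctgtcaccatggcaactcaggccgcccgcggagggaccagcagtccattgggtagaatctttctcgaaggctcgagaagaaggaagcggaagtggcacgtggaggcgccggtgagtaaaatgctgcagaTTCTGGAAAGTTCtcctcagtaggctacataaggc

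Socs3 lies on chromosome 11 (chr11:117969317-117969616, minus strand). Its motif starts at -154 from the gene start, and the gene rose by 2.46.

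Socs3: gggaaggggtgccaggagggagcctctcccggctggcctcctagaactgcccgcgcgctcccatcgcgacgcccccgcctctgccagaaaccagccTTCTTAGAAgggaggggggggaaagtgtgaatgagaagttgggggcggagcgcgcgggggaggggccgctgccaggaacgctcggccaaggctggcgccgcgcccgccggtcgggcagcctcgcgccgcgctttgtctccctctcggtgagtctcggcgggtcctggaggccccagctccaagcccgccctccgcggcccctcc

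Ifitm3 lies on chromosome 7 (chr7:141010695-141010994, minus strand) and holds the interferon element 2 times. The gene rose by 2.17.

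Ifitm3: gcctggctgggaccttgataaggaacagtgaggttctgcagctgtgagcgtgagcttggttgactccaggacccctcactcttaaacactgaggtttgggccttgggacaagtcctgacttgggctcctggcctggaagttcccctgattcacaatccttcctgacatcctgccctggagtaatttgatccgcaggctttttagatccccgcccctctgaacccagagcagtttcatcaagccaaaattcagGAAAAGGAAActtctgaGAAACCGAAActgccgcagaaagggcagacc

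Most genes of reactive astrocytes rose, where 3.71% of all genes did. Of 35 genes in 3 lists known from work on reactive astrocytes, some of it on MCAO in mice, 28 rose (80%) and none fell, and 26, 24, 29, 26 and 25 rose with the arrays left out in turn. Of 13 pan-reactive genes 12 rose in the full fit and in each fit with an array left out, at a median of 2.11. Timp1, an inhibitor of metalloproteinases, read 7.04 and 6.94 (sham) and 9.65, 10.35 and 10.34 (MCAO), and the intermediate filament genes Gfap and Vim read 10.05 and 10.77 (sham) and 11.94, 12.15 and 12.21 (MCAO), and 9.37 and 9.38 (sham) and 11.15, 11.71 and 11.60 (MCAO). Of the genes linked to ischaemia, called A2, 11 of 13 rose (10 to 12) at a median of 1.55, among them the pentraxin Ptx3 at 6.18 and 5.47 (sham) and 7.98, 8.36 and 8.32 (MCAO). Of the genes linked to inflammation, called A1, 5 of 9 rose (2 to 5) at a median of 0.67. They were led by the proteoglycan Srgn (1.98) and Gbp2 (1.58). The genes of resting astrocytes moved differently: of 17 markers Sox9 alone rose (0.58) and the median change was -0.10. Sox9 lost its call on leaving out WT sham 1 or WT sham 2.

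Of 226 matrix genes in 6 lists 37 rose (16.4%) and 2 fell, and 26, 29, 44, 34 and 29 rose with the arrays left out. Over all genes 3.71% rose and 1.54% fell. In the vessel basement membrane, Col4a1 read 9.10 and 9.08 (sham) and 10.62, 10.63 and 10.78 (MCAO), Col4a2 rose by 1.11 and the linker Nid1 by 1.16. Of 42 collagen chains 4 rose and 1 fell, with a list median of -0.02. Besides the chains of type IV collagen, Col3a1 rose by 1.10, Col16a1 rose by 0.52 and Col11a2 fell by 0.55. Nid1 was the one called gene (7.14%) of 14 laminins, nidogens and perlecan. Proteases of the matrix gave 7 rises of 66 (7 to 8). Mmp3 read 5.08 and 4.80 (sham) and 7.49, 7.90 and 7.91 (MCAO), Adamts1 6.77 and 6.84 (sham) and 9.93, 9.76 and 10.23 (MCAO), and Adam8 rose by 1.87. Col3a1 lost its call on leaving out WT sham 1, WT MCAO 2 or WT MCAO 3, and Col16a1 on leaving out WT sham 1 or WT sham 2, and Col11a2 on leaving out WT sham 1, WT sham 2, WT MCAO 2 or WT MCAO 3.

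Matricellular genes gave 11 rises of 44 (6 to 13). Tenascin C (Tnc) read 5.73 and 6.56 (sham) and 8.29, 8.61 and 8.88 (MCAO), the sham arrays differing by 0.83. Tgfbi read 6.75 and 7.09 (sham) and 8.96, 9.24 and 9.15 (MCAO), and Ccn1 rose by 1.76. Of 31 genes of the plasminogen and clotting systems 9 rose (7 to 11), and these included thrombomodulin (Thbd, 1.76), von Willebrand factor (Vwf, 1.63), the protein C receptor (Procr, 1.61) and the urokinase receptor (Plaur, 1.5). Among 29 integrin subunits 5 rose (1 to 5) and 1 fell. Itga5, the fibronectin receptor chain, rose by 1.02. Procr lost its call on leaving out WT sham 1 or WT sham 2, and Itga5 on leaving out WT sham 1.

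Of 82 vessel genes in 3 lists 23 rose (28%) and 4 fell, and 15, 19, 27, 21 and 16 rose with the arrays left out. In the list of endothelial adhesion and activation 14 of 26 rose (12 to 16) and 2 fell, with a median of 1.11. By comparison, 3.71% of all genes rose and 1.54% fell. Ch25h, which makes 25-hydroxycholesterol, read 6.05 and 5.72 (sham) and 8.20, 8.64 and 9.35 (MCAO), and Lrg1 read 5.61 and 5.21 (sham) and 8.05, 8.31 and 8.07 (MCAO). Of 29 barrier genes 5 rose (2 to 6) and 2 fell. The junction genes Pecam1 and Cdh5 rose by 1.09 and 1.04, while the organic anion transporters Slc22a8 and Slco1a4 fell by 0.83 and 0.56. Of the growth factors of vessels Angptl4 rose by 1.25, Angpt2 by 1.13, the receptor Flt1 by 0.85 and Notch1 by 0.71. Endothelial markers moved with these lists: 6 of 13 rose (2 to 8) and 1 fell. Their mean level was 7.69 and 7.85 in the sham arrays and 8.14 to 8.39 after MCAO. Their part in the vessel and matrix results was not tested. Cdh5, Slco1a4, Flt1 and Notch1 lost their calls without WT sham 1, Cdh5, Slc22a8, Slco1a4, Angptl4 and Notch1 without WT sham 2, Slco1a4, Angptl4 and Flt1 without WT MCAO 2, and Cdh5, Slc22a8, Slco1a4, Angptl4 and Flt1 without WT MCAO 3.

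Of 67 actin, myosin and focal adhesion genes 22 rose (12 to 24) and 2 fell. Moesin (Msn), which links actin to the membrane, read 8.51 and 8.68 (sham) and 10.40, 10.70 and 10.80 (MCAO), the capping protein Capg 6.22 and 6.06 (sham) and 7.84, 8.12 and 8.16 (MCAO), and the leukocyte bundling protein Lcp1 6.40 and 6.98 (sham) and 8.0, 8.45 and 8.34 (MCAO). Pdlim4 rose by 1.5 ± 0.074 (adjusted p = 0.000151). Tubb6 was the single rise among 49 tubulin and microtubule genes, against 3.71% of all genes, and of these 49, 37 had values below 0. It read 6.45 and 6.38 (sham) and 9.08, 9.49 and 9.41 (MCAO). Over the 4 cytoskeletal lists 28 of 231 genes rose, and 15, 16, 31, 21 and 18 with the arrays left out.

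Over 13 lists of channels, receptors, synapses, neuropeptides and regional neurons, 38 of 448 genes fell (8.48%, against 1.54% of all genes), 5 rose, and the median change was -0.14. The number that fell was 17, 16, 43, 37 and 25 with the arrays left out. Of 27 genes of striatal projection neurons 18 fell, all 27 values lay below 0 and the median was -0.90. These genes gave 12, 12, 18, 21 and 17 falls with the arrays left out. Penk, the enkephalin precursor of striatopallidal neurons, read 11.47 and 11.72 (sham) and 10.45, 10.87 and 10.06 (MCAO). The dopamine receptor genes Drd1 and Drd2 read 10.12 and 10.06 (sham) and 9.07, 9.33 and 9.07 (MCAO), and 8.22 and 8.31 (sham) and 7.46, 7.31 and 7.28 (MCAO). The cyclic nucleotide phosphodiesterase Pde10a read 10.84 and 10.71 (sham) and 9.63, 9.76 and 9.52 (MCAO). The mean level of 8 striatal markers was 10.03 and 10.01 in the sham arrays and 8.71 to 9.04 after MCAO. Penk lost its call on leaving out WT sham 1, WT sham 2, WT MCAO 1 or WT MCAO 3.

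In the other neuronal lists most genes did not pass, in RNA of a whole hemisphere that includes the striatum. Of 28 genes of cortical excitatory neurons 3 fell (0 to 4): Lamp5 by 1.0, Lmo3 by 0.58 and Pcp4 by 0.49. Of 53 presynaptic genes 3 fell (0 to 3), the syntaxin Stx1a by 0.69, the calcium sensor Doc2b by 0.63 and the complexin Cplx2 by 0.46, and 45 of the 53 values lay below 0. Of 42 postsynaptic genes 3 fell (0 to 4), Camk4 by 0.92, the AMPA receptor auxiliary subunit Cacng3 by 0.90 and neurogranin (Nrgn) by 0.46, and 39 values lay below 0. No gene was called among 23 glutamate receptors or 21 general neuronal markers, where limma gave 6 and 4 genes at an unadjusted p under 0.05. Grik2 read -0.48 and Tubb3 -0.35, neither called. Of 22 GABA and glycine receptors Gabrd and Gabra2 fell, by 0.93 and 0.48. Lamp5, Lmo3, Pcp4, Doc2b, Cplx2, Camk4, Nrgn and Gabra2 lost their calls without WT sham 1, Lamp5, Lmo3, Pcp4, Stx1a, Doc2b, Cplx2, Camk4, Cacng3, Nrgn and Gabra2 without WT sham 2, Lmo3, Pcp4 and Gabra2 without WT MCAO 1, Cplx2, Camk4 and Nrgn without WT MCAO 2, and Lmo3, Pcp4, Cplx2, Camk4, Cacng3, Nrgn and Gabra2 without WT MCAO 3.

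Potassium channels gave 6 falls (1 to 8) and 2 rises of 81. Kcnv1, a modifier subunit of cortical neurons, fell by 0.96, the channel partner Kcnip2 by 0.84 and the two-pore channel Kcnk2 by 0.61. Kcnj8, found in pericytes, rose by 0.63. Scn4b, the sodium channel subunit enriched in striatum, read 10.71 and 10.64 (sham) and 9.77, 9.87 and 9.36 (MCAO). Galanin (Gal) was the one neuropeptide gene of 32 that rose, at 7.30 and 7.28 (sham) and 8.58, 8.06 and 8.06 (MCAO), while Penk and Tac1 fell. Thalamic, hippocampal and hindbrain lists gave 2, 1 and 0 rises and 0, 0 and 2 falls, and the serotonin transporter Slc6a4 fell by 0.88. The hindbrain list had 3 falls without WT MCAO 1, and 0 without each of the other 4 WT arrays. Kcnip2, Kcnk2, Kcnj8, Scn4b, Gal, Penk, Tac1 and Slc6a4 lost their calls without WT sham 1, Kcnv1, Kcnip2, Kcnk2, Kcnj8, Scn4b, Gal, Penk, Tac1 and Slc6a4 without WT sham 2, Penk without WT MCAO 1, Kcnv1 and Slc6a4 without WT MCAO 2, and Kcnv1, Kcnip2, Kcnj8, Penk and Slc6a4 without WT MCAO 3.

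Over 10 lists of other signalling pathways, 23 of 389 genes rose (5.91%, against 3.71% of all genes) and 12 fell (3.08%, against 1.54%). Of 33 phosphodiesterases and adenylyl cyclases 5 fell (2 to 5) and 1 rose, Pde10a, Pde7b (-0.76) and Pde1b (-0.74) among them, and of 21 regulators of G protein signalling 3 fell (1 to 3), Rgs9 (-0.98), Rgs14 (-0.67) and Rgs12 (-0.58). Of 71 growth factor genes 5 rose (2 to 7) and 1 fell. The binding protein Igfbp3 read 7.09 and 6.91 (sham) and 8.35, 9.19 and 9.27 (MCAO), Igfbp7 9.02 and 9.42 (sham) and 10.78, 11.02 and 11.13 (MCAO), and the EGF receptor ligand Hbegf 7.95 and 8.09 (sham) and 9.69, 9.76 and 9.99 (MCAO). The sphingosine 1-phosphate receptor S1pr3 read 8.0 and 8.10 (sham) and 9.84, 9.94 and 9.92 (MCAO) and the kinase Sphk1 rose by 1.11, the 2 called genes of 28 in that pathway. In TGF-beta signalling 5 of 40 rose (1 to 6), Fstl1 by 0.96, the ligand Tgfb1 by 0.94 and its receptor Tgfbr2 by 0.81. Wnt signalling had no rise among 52 genes and 1 fall, Wnt9a by 0.53. The clock list had 1 rise of 21, Nfil3 by 0.75. Over the 10 lists 7, 13, 27, 16 and 14 rose with the arrays left out. Rgs14, Rgs12, Tgfb1, Tgfbr2 and Wnt9a lost their calls without WT sham 1, Pde1b, Rgs12, Igfbp3, Tgfb1 and Wnt9a without WT sham 2, Tgfb1 and Wnt9a without WT MCAO 2, and Rgs12, Tgfb1 and Wnt9a without WT MCAO 3.

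Of 82 respiratory chain and ATP synthase genes limma called none, 12 had an unadjusted p under 0.05, and 69 values lay below 0 with a median of -0.09. Of 30 citric acid cycle genes and 23 cholesterol synthesis genes none was called either, with 1 gene in each at an unadjusted p under 0.05. In glycolysis hexokinase 2 (Hk2) read 7.10 and 7.39 (sham) and 8.66, 8.48 and 8.54 (MCAO), and the lactate transporter Slc16a1 rose by 0.59. Lipid storage and export gave 6 rises of 26 (2 to 5), and the lipid droplet coat Plin2 read 8.05 and 8.06 (sham) and 9.51, 10.04 and 9.97 (MCAO). In the polyamine pathway the rate-limiting enzyme Odc1 read 10.06 and 10.26 (sham) and 11.26, 11.45 and 11.60 (MCAO), and Sat1 rose by 0.66. Cp and Slc11a1, of the list of iron uptake, storage and export, rose by 1.45 and 0.87. Over 9 lists of metabolism 23 of 277 genes rose (8.3%, against 3.71% of all genes) and 2 fell. The number that rose was 14, 12, 21, 14 and 14 with the arrays left out. Slc16a1 lost its call on leaving out WT sham 1 or WT MCAO 3, and Sat1 on leaving out WT sham 2, WT MCAO 1, WT MCAO 2 or WT MCAO 3.

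Changes in genes of protein synthesis and turnover were small. Of 632 genes in 12 lists 34 rose (5.38%, against 3.71% of all genes) and 5 fell (0.791%, against 1.54%). The number that rose was 10, 11, 36, 18 and 16 with the arrays left out. Of 55 ribosome biogenesis genes 10 rose, 45 values lay above 0 and the median was 0.17. The snoRNP protein Nop58 read 7.66 and 7.75 (sham) and 8.38, 8.41 and 8.33 (MCAO) and the helicase Ddx21 7.52 and 7.27 (sham) and 8.06, 7.99 and 8.0 (MCAO). This count was among the least stable, at 1, 1, 9, 3 and 1 with WT sham 1, WT sham 2 and WT MCAO 1, 2 and 3 left out. Of 49 cytosolic ribosomal proteins 2 rose and 1 fell, and of 76 mitochondrial ones Mrps6 alone rose, at 9.67 and 9.80 (sham) and 10.78, 10.93 and 10.81 (MCAO). Of 21 tRNA synthetases 3 rose (0 to 2), Eprs by 0.48 and Tars by 0.42 the most. No gene was called among 53 of nuclear transport, where 8 had an unadjusted p under 0.05 in limma, and 1 of 42 constitutive proteasome subunits rose. In the lysosome 6 of 57 rose (5 to 7), the protease Ctsc at 7.59 and 8.14 (sham) and 9.66, 10.11 and 9.87 (MCAO) and the macrophage gene Cd68 at 7.23 and 7.48 (sham) and 8.75, 8.84 and 8.81 (MCAO). Olfactory and vomeronasal receptors, which the brain hemisphere is not known for, gave no call among 69 genes in limma and 4 at an unadjusted p under 0.05. Nop58, Eprs and Tars lost their calls without WT sham 1, Ddx21, Eprs and Tars without WT sham 2, Eprs and Tars without WT MCAO 2, and Ddx21, Eprs and Tars without WT MCAO 3.

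**Figure D4:**
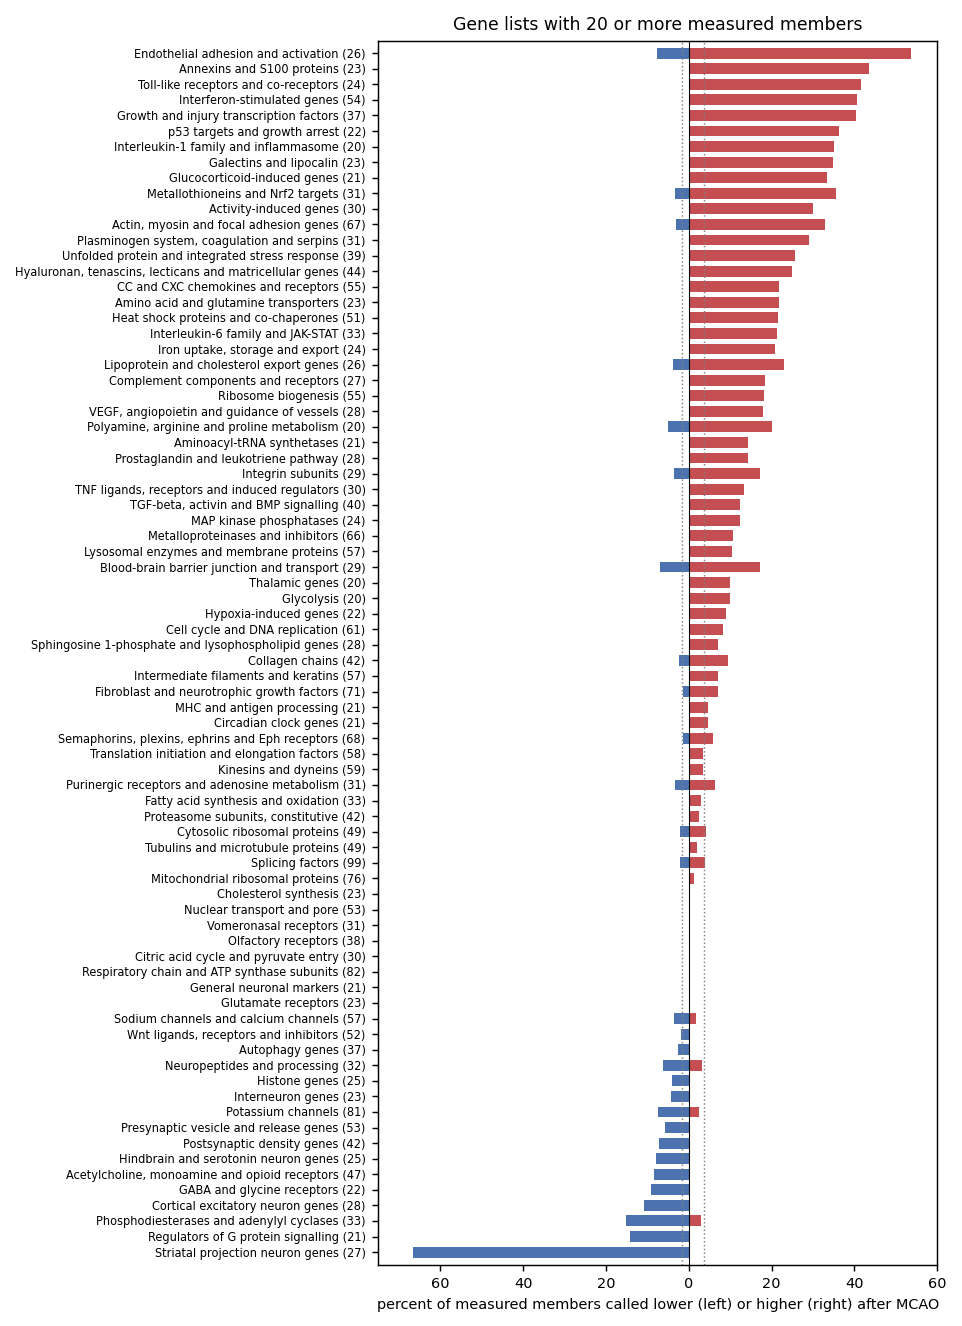
Percent of the measured members of each gene list, with the number measured in brackets, that limma called higher (right) or lower (left) after MCAO, for lists with 20 or more measured members. Dotted lines mark the percentages over all genes, 3.71 higher and 1.54 lower. The list of endothelial adhesion and activation genes is at the top and that of striatal projection neuron genes at the bottom.

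The Hsp72Tg arrays gave a second set of samples with the same surgery. Because Hsp72Tg MCAO 1 stood near the sham level in its striatal and microglial markers, each result is given with all 5 Hsp72Tg arrays and without that array. Leaving it out was chosen after its values were seen. With all 5 arrays limma called 0 genes (0%), and 985 had an unadjusted p under 0.05. Without Hsp72Tg MCAO 1 it called 177 (0.973%), and 2562 had an unadjusted p under 0.05. With any 1 of the other 4 arrays left out it called 0, and 348 to 1398 had an unadjusted p under 0.05.

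Of the 955 genes called in WT, 925 (96.9%) had the same sign in Hsp72Tg, against 69% of all genes. Without Hsp72Tg MCAO 1 the number was 926, against 70.5% of all genes. The median Hsp72Tg change of the genes that rose in WT was 0.60 with all 5 arrays and 0.81 without Hsp72Tg MCAO 1. For the genes that fell in WT it was -0.39 and -0.53. With all 5 arrays 742 of the 955 had the same sign and a smaller size in Hsp72Tg, and 427 did without Hsp72Tg MCAO 1.

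Lcn2 read 6.79 and 5.66 in the Hsp72Tg sham arrays and 6.79, 12 and 11.06 in Hsp72Tg MCAO 1, 2 and 3. Il6 read 4.68 and 4.39 after sham surgery and 4.43, 9.29 and 8.29 after MCAO. Hsp72Tg MCAO 1 was at the sham level for both genes, and the other MCAO arrays were far above it. Lcn2 rose by 5.04 in WT, and its Hsp72Tg change was 3.73 with all 5 arrays and 5.31 without Hsp72Tg MCAO 1. Il6 rose by 3.62 in WT, with 2.80 and 4.25 in Hsp72Tg. Socs3 rose by 2.46 in WT, with 2.23 and 2.93 in Hsp72Tg, and Gpr6 changed by -2.07 in WT, with -1.46 and -2.09.

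Hspa1a read 8.28 and 8.53 in the Hsp72Tg sham arrays and 10.63, 13.23 and 12.11 after MCAO, above sham in each MCAO array. Its change was 2.66 in WT and 3.58 in Hsp72Tg, or 4.26 without Hsp72Tg MCAO 1. That of Hspa1b was 3.04 in WT and 3.90 in Hsp72Tg, or 4.39 without that array. The labels do not say whether these probe sets read the transgene. The median of the pan-reactive astrocyte genes was 2.11 in WT and 2.31 in Hsp72Tg, or 2.69 without Hsp72Tg MCAO 1. The median of the striatal genes was -0.90 in WT and -0.52 in Hsp72Tg, or -0.85 without Hsp72Tg MCAO 1.

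A test over all 10 arrays of whether the change differed with genotype called 0 genes in limma (0%), with 319 at an unadjusted p under 0.05, 51 of them among the 955. Without Hsp72Tg MCAO 1 it called 2 genes, Cap1 and Tmem87a. The actin regulator Cap1 rose by 0.59 in WT. It read 10.14 and 10.33 in the Hsp72Tg sham arrays and 10.57, 6.32 and 6.28 after MCAO, low in Hsp72Tg MCAO 2 and 3 alone. Egr2 rose by 1.15 in WT, and its Hsp72Tg change was -1.10, or -0.39 without Hsp72Tg MCAO 1. Fos rose by 2.16 in WT, and its Hsp72Tg change was 0.22, or 1.06 without that array. Its mean after sham surgery was 11.06 in Hsp72Tg, against 8.96 in WT. The difference between the changes of Fos was 1.94 ± 1.0 SE (adjusted p = 1), and 1.11 without Hsp72Tg MCAO 1. Cap1 and Tmem87a, like Ccr1 and Slco1a4 above, were named after their values were seen.

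**Figure D5:**
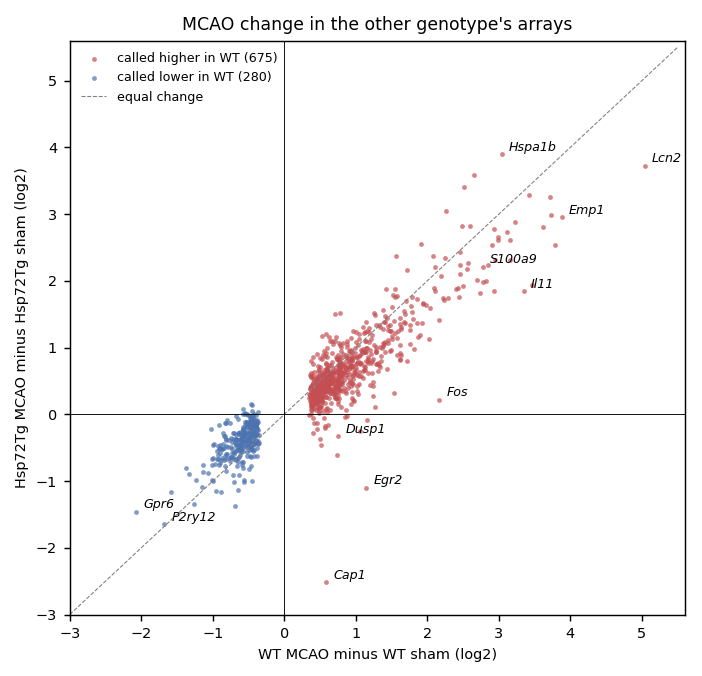
Change after MCAO in the Hsp72Tg arrays against that in the WT arrays, log2, for the 955 genes called in WT. Most points share the sign of the WT change and lie nearer to 0 than the dashed line of equal change, and Cap1, Egr2 and Fos stand below the rest. The Hsp72Tg change is over all 5 arrays, Hsp72Tg MCAO 1 included.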

How the data were processed

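Total RNA of the hemisphere was labelled by in vitro transcription and hybridised to Affymetrix mouse arrays, 1 array per sample, per the labels' protocols. The authors deposited log2 values normalised by RMA, per the submitters' processing notes; the RMA version is not given in the sources used here. RMA subtracts background and equalises array distributions, so dim probe sets compress toward a floor and folds of low genes are understated. Array lower quartiles lay between 5.14 and 5.21.

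Of 45101 probe sets, 34945 carried 1 gene symbol, 932 several, 9160 were not in the annotation table and 64 were controls. Symbols were checked through Entrez identifiers against RefSeq GRCm38.p6, in which 34741 probe sets matched. Each of 18193 genes was represented by its brightest probe set on average in the 10 arrays. The 5 WT arrays were fitted alone with limma 3.58.1 in R 4.3.3 (lmFit, eBayes, 3 residual degrees of freedom), and Benjamini-Hochberg adjusted p-values under 0.05 were called. With 2 sham arrays the precision is limited, and an exact two-sided permutation test over arrays cannot go below p = 0.2. The labels do not say that samples came from separate animals, so p-values measure the spread between these samples. The code was tested on simulated data.

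Genes named are Hspa1a, Hspa1b and Gabra6, the 20 called genes per direction with the widest gap between groups, up to 4 called members of each of 88 lists (or the 2 largest where none was called), up to 3 per cell type list of 19, up to 10 genes per direction that differed most between the sham arrays, and 1 promoter gene per motif. Members and lists were chosen with earlier results of these data known. Alternatives covered moderation, array weights, normalisation, probe set choice, thresholds and leaving out each array.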

Additional observations from a re-analysis of the deposited data

How the results depend on the processing

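All 955 called genes kept their direction with any 1 WT array left out, and the calls numbered 336 to 1100, with 270 to 757 higher and 66 to 343 lower. These fits reuse most of the arrays that gave the calls, so the kept direction is largely built in. A fit without a sham array assumes that the remaining one varies like the other group. Over all 10 arrays with 1 shared spread, 10 genes were called, 9 higher and 1 lower. With 1 Hsp72Tg array left out of that fit, added after seeing the data, the calls numbered 463 without Hsp72Tg MCAO 1, 30 and 121 without Hsp72Tg MCAO 2 and 3, and 1 without either sham array. Array weights gave 1549 calls with 605 lower, and moderation with a trend and robust options gave 480 lower. An adjusted p under 0.01 left 344 calls (289 and 55), and a 2-fold minimum left 229 (212 and 17). The replicate number as a block gave 825 calls. The labels do not pair the arrays and only 2 numbers are shared (deviations of same-numbered arrays correlated at 0.10 and 0.22), so this block is given here only. It took the call from 14 of the called genes named in the text and kept it for 196. The other settings moved the count by less than 1.5 times. The share of calls with the same sign in Hsp72Tg was 98.8% at an adjusted p under 0.01, 98.7% with the 2-fold minimum, and 91.7% to 98.5% with 1 array left out, the lowest without Hsp72Tg MCAO 3. Leaving out Hsp72Tg arrays was added here after seeing the data. The difference between genotypes gave 0 calls in limma under every setting with all arrays (206 to 551 at an unadjusted p under 0.05), and 0 to 2 with 1 array left out, with 2 without WT sham 2 and 2 without Hsp72Tg MCAO 1.

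Reversals touched 10 of the genes named, none of them called. The ranges with 1 array left out were -5.12 to 0.19 for Gabra6, -4.08 to 0.16 for Pcp2, -1.69 to 0.13 for Cbln3, -2.11 to 0.088 for Crtam, -1.95 to 0.011 for Ppp1r17 and -2.96 to 0.37 for Gh, each turning without WT sham 1. They were -1.65 to 0.20 for Cdhr1, -1.63 to 0.69 for S100a5 and -0.077 to 2.18 for Plin4, each turning without WT sham 2. For Tmem87a they were -0.0065 to 0.15, turning without WT MCAO 1. Array weights turned S100a5 to 0.057. The causes were not tested. Over the settings with 1 value per gene, list medians moved beyond the spread among the MCAO arrays 135 times and stayed within it 1009 times.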

Other observations

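Of the 955 called genes, 551 were in none of the 88 lists. The genes and families described here were chosen after their values were seen, so no test of the choice is given. The Nat8 family of N-acetyltransferase-like genes, known from kidney and liver, had 7 measured members, all with values below 0, and 5 were called lower, among them Nat8f4 at 7.04 and 7.02 (sham) and 6.19, 6.13 and 6.17 (MCAO). That count was 1, 2, 4, 1 and 1 when WT sham 1, WT sham 2 and WT MCAO 1, 2 and 3 were left out. The syndecans Sdc4 and Sdc1, which carry heparan sulfate on the cell surface, rose by 1.62 and 1.22. Of 17 Ms4a genes, a family of tetraspan membrane proteins, Ms4a6d, Ms4a6b and Ms4a6c rose by 2.94, 1.82 and 1.43, and the other 14 were not called. Ctla2a and Ctla2b, which encode small protease inhibitors, read 7.51 and 7.14 (sham) and 10.29, 10.06 and 10.61 (MCAO) and 5.28 and 5.31 (sham) and 7.66, 7.44 and 8.07 (MCAO). The intracellular chloride channel genes Clic1 and Clic4 rose by 1.5 and 1.21, and the mRNA decay factor Zfp36, which binds AU-rich elements, by 1.71.

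A large rise was also seen in Prg4, the joint lubricant lubricin, at 7.85 and 7.16 (sham) and 9.59, 10.08 and 10.63 (MCAO). The protease inhibitor A2m read 7.70 and 7.11 (sham) and 9.80, 10.02 and 9.88 (MCAO) and the transglutaminase Tgm2 8.19 and 8.10 (sham) and 10.34, 10.26 and 10.49 (MCAO). Cd93, Rnf125, Slc15a3, Dab2 and Gpr84 rose by 2.56, 2.45, 2.09, 1.94 and 1.86. These 8 genes kept their call whichever WT array was left out.

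A few uncalled genes split the MCAO arrays. Ifi202b, an interferon-induced gene known to differ between mouse strains, read 4.66 and 4.63 (sham) and 9.43, 4.69 and 8.60 (MCAO). The ubiquitin ligase gene Mid1 read 6.01 and 5.46 (sham) and 10.01, 9.40 and 6.11 (MCAO). WT MCAO 2 was at the sham level in the first and high in the second, and WT MCAO 3 the reverse.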
